A study of Mus musculus with 14 samples.

Results

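The hypoxia response and glycolysis genes were 36 genes picked by name: 14 glycolytic enzymes, 6 genes of glucose and lactate transport and flux control, 15 other targets of hypoxia-inducible factor (HIF) and the HIF subunit gene Hif1a. All 36 were found by gene name among the non-control probes of the array, and 34 of them were among the 21318 gene names tested. The probes of Slc2a3, a second glucose transporter, and Mxi1, an antagonist of Myc, were marked well above background only on Si2AK replicate 2 and SiC replicate 1 and were not tested. Where a gene had several probes, the brightest one stood for it, and levels are therefore never compared between genes.

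Gene expression was measured on 1-colour Agilent arrays in mSCC-38 cells, a mouse line from a skin squamous cell carcinoma induced chemically (DMBA and TPA). The groups were cells transfected with siRNA Si1AK against the transcript AK144841 (4 arrays), cells transfected with a distinct siRNA against it, Si2AK (3 arrays), cells transfected with the control siRNA SiC (3 arrays) and untransfected cells, NT (4 arrays). The siRNA groups shared harvest after 72 h and the lipid transfection (RNAimax), which NT lacked, so a comparison with NT holds the transfection as well as the siRNA. The time in culture of NT is not given in the labels. All 14 samples were of this 1 cell line in medium with serum, with 0.2 µg of RNA and an RNA integrity number of 9, and no hypoxia treatment is named. Whether the replicates came from separate cultures is not given in the labels, and the p-values cover the spread between these arrays alone, part of which may be technical.

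In cells with enough oxygen, prolyl hydroxylases such as Egln1 and Egln3 mark HIF alpha subunits for degradation through the Vhl ubiquitin ligase. When oxygen is low, the stabilised subunit binds short DNA motifs and raises genes of glucose uptake, glycolysis, pH control, blood vessel growth, mitophagy and collagen processing. Squamous carcinomas commonly run glycolysis at a high rate, and growth signals can raise many of the same genes without hypoxia.

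To show the promoter letters of genes that turned out differently in the comparisons, the 250 bases before the start of 4 genes that rose with Si2AK and of 2 glycolytic enzymes that were not called (Pgk1 and Ldha) are printed here 5′ to 3′, from RefSeq on GRCm38.p6. Capitals mark the HIF core motif ACGTG or GCGTG on either strand (neighbouring matches may overlap).
Hk2, chr6:82774455-82774704, minus strand: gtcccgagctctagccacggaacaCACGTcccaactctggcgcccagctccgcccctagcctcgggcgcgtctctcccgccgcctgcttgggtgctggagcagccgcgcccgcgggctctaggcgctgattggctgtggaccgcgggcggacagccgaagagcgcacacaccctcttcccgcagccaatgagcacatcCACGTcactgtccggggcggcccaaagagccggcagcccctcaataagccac
Slc2a1, chr4:119108495-119108744, plus strand: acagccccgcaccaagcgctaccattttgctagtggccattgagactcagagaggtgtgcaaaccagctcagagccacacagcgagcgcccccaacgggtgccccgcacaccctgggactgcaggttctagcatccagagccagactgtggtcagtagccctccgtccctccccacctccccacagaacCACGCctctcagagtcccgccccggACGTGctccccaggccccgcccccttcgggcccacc
Pfkfb4, chr9:108991652-108991901, plus strand: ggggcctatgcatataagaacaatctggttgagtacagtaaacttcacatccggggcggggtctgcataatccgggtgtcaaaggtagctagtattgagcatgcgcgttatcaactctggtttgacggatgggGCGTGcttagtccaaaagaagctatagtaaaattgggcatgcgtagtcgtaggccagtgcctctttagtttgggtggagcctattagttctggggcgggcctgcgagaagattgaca
P4ha1, chr10:59323046-59323295, plus strand: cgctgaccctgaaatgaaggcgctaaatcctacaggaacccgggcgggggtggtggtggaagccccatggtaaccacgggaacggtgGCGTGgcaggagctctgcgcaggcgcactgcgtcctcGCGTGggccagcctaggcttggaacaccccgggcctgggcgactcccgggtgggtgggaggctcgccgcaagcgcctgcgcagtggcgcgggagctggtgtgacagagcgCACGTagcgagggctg
Pgk1, chrX:106186850-106187099, plus strand: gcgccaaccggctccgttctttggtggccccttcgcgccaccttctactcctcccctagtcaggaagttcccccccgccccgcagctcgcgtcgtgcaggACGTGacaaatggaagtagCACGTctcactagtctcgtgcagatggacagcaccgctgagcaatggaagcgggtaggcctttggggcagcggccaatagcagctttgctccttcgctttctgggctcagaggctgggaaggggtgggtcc
Ldha, chr7:46845554-46845803, plus strand: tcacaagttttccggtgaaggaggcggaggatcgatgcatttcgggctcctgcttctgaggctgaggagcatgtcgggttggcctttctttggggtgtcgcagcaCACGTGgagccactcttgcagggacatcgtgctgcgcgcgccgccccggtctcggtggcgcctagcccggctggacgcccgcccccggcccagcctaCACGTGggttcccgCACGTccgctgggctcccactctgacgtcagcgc
These stretches held 2, 2, 1, 3, 2 and 5 matches in the order printed, so genes that were called and genes that were not both carried the letters. The table had entries for 33 of the 36 members and none for Slc2a3, Bnip3l and Ndrg1. Over windows from 250 bases before to 50 after a start, 40 of 51 windows of the members held a match (78.4%), against 14379 of 32841 windows of all genes (43.8%). By role, the share of windows was 76% for glycolytic enzymes, 85.7% for transport and flux control and 77.8% for other HIF targets. A match is a description of letters, not a binding site.

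The arrays lay on 2 slides of 7, and slide 1 held only 1 SiC array, replicate 1, and slide 2 only 1 Si2AK array, replicate 3. Raised signal set a pair of arrays apart: the median processed signal was 107.5 on Si2AK replicate 2 and 270.9 on SiC replicate 1, against 23.5 to 58.7 on the other 12. Differences from SiC on slide 1 alone thus rest on the raised SiC replicate 1 as the only control array. All values below are log2 signals relative to the 75th percentile of the array, and a gene was called at a limma p-value below 0.05 after Benjamini-Hochberg adjustment over all genes. Of 12 keratinocyte and epithelial markers 11 were measured, among them Krt5, Krt14, Krt8 and Trp63, and Cdh1 was not kept by the background filter. Adm was well above background on 12 of the 14 arrays, and the other 33 tested members on all 14. AK144841 itself was not analysed here, and the extent of its knockdown is therefore not given.

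Si2AK against SiC asked how these genes responded to the second siRNA. Hk2, Slc2a1, Pfkfb4, Ndrg1 and P4ha1 rose with Si2AK by 1.48-fold to 2.28-fold, and no member fell. These 5 of 34 tested members stand beside a background of 13.2% of all genes called in either direction and 8.52% called higher in this comparison, so the share of members called was close to that of all genes. By role, 1 of 14 glycolytic enzymes, 2 of 5 transport and flux control genes and 2 of 14 other HIF targets were higher. In bulk RNA, a change in the number of cells of a kind and a change in RNA per cell cannot be told apart. Called lower were 4.69% of all genes and 0 members. The count was 5 without Si1AK replicate 4 and Si2AK replicate 3, an alternative chosen after seeing the data, with 1858 of 21318 genes called. The fit that held slides as blocks gave 9, with 3499 of 21318 genes called. Each slide alone left 1 array in SiC or in Si2AK, so no count of calls is given for it. Fitting only the arrays of these groups gave 0 members, with 89 of 21318 genes called in place of 2816. Scaling each array to its median in place of its 75th percentile also gave 0, with 1 of 21318 genes called. It moved the median of all genes to 0.42, with the 5 genes at 1.004 to 1.63, above that shift.

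Hk2, the inducible hexokinase that traps glucose in the cell, was at 3.23, 3.17 and 3.18 in Si2AK and at 2.18, 2.58 and 2.58 in SiC. The Si2AK arrays lay close together and all above the SiC arrays, of which replicate 1 was the lowest. The difference was 0.75 ± 0.11 (SE; limma adjusted p = 0.00131), a 1.68-fold rise. Slide 1 alone, with SiC replicate 1 as its only SiC array, gave 1.02, slide 2 alone 0.60, and the fit holding slides as blocks 0.76. The probe lies at chr6:82675056-82675115 of build mm9. The housekeeping hexokinase Hk1 averaged 7.55 ± 0.25 in Si2AK and 7.50 ± 0.20 in SiC (SD, n = 3 each), and its difference of 0.06 had an interval from -0.27 to 0.39. Dimmer Hk1 probes gave 0.45 and 0.21 against SiC. Against NT they gave 0.58 (limma adjusted p = 0.0222 over probes) and 0.41, where the brightest probe gave -0.13, so the probes of this gene disagreed.

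Slc2a1, the glucose transporter GLUT1, was at 6.86, 6.83 and 6.85 in Si2AK and at 5.88, 6.38 and 6.32 in SiC. All Si2AK values exceeded all SiC values. The difference was 0.65 ± 0.14 (SE; limma adjusted p = 0.0107), or 1.57-fold. On slide 1, against SiC replicate 1 alone, it was 0.97, with slide 2 alone 0.50, and slides as blocks 0.68. Its probe is placed at chr4:118809864-118809923 of mm9.

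Pfkfb4, a kinase and phosphatase that sets the level of the phosphofructokinase activator fructose 2,6-bisphosphate, was at 1.76, 1.64 and 1.60 in Si2AK and at 0.73, 1.29 and 1.29 in SiC. The groups did not overlap, and SiC replicate 1 was the lowest value. The difference was 0.56 ± 0.13 (SE; limma adjusted p = 0.0157), and its probe lies at chr9:108934652-108934711 of mm9. Slide 1 alone, against SiC replicate 1 only, gave 0.97, slide 2 alone 0.31, and slides as blocks 0.59. The call was lost without Si2AK replicate 1 (difference 0.52, adjusted p = 0.062) and with no filter on dim probes (adjusted p = 0.0515). Without the raised arrays, SiC replicate 1 and Si2AK replicate 2, the difference was 0.39 (adjusted p = 0.0238). Its relative Pfkfb3 differed by 0.54 with an interval from -0.03 to 1.11. The lactate exporter Slc16a3 (-0.14) and the pyruvate dehydrogenase kinase Pdk1 (-0.02) were not called either.

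Ndrg1, a stress-responsive gene used as a marker of HIF activity, was at 5.20, 5.17 and 5.63 in Si2AK and at 3.64, 4.41 and 4.39 in SiC. No SiC array came near the lowest Si2AK array. Its difference of 1.19 ± 0.25 (SE; limma adjusted p = 0.0085), or 2.28-fold, was the largest of the 34 members. Slide 1 alone, against SiC replicate 1 only, gave 1.55, slide 2 alone 1.23, and slides as blocks 1.30. Its probe lies at chr15:66761057-66761116 of mm9.

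P4ha1, the catalytic subunit of a collagen prolyl hydroxylase, was at 0.29, 0.30 and 0.26 in Si2AK and at -0.38, -0.24 and -0.50 in SiC. The Si2AK values lay within a narrow band above all SiC values. The difference was 0.66 ± 0.15 (SE; limma adjusted p = 0.0135), with its probe at chr10:58835625-58835684 of mm9. Neither slide alone called it (slide 1 0.67, adjusted p = 0.157, and slide 2 0.63, adjusted p = 0.173), and slides as blocks gave 0.63. The call was lost without the raised arrays (0.65, adjusted p = 0.0658) and with the mean of both probes (0.56, adjusted p = 0.0563). The second probe gave 0.47. P4ha2, the paralogous subunit, differed by 0.11 with an interval from -0.37 to 0.59.

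**Figure D1:**
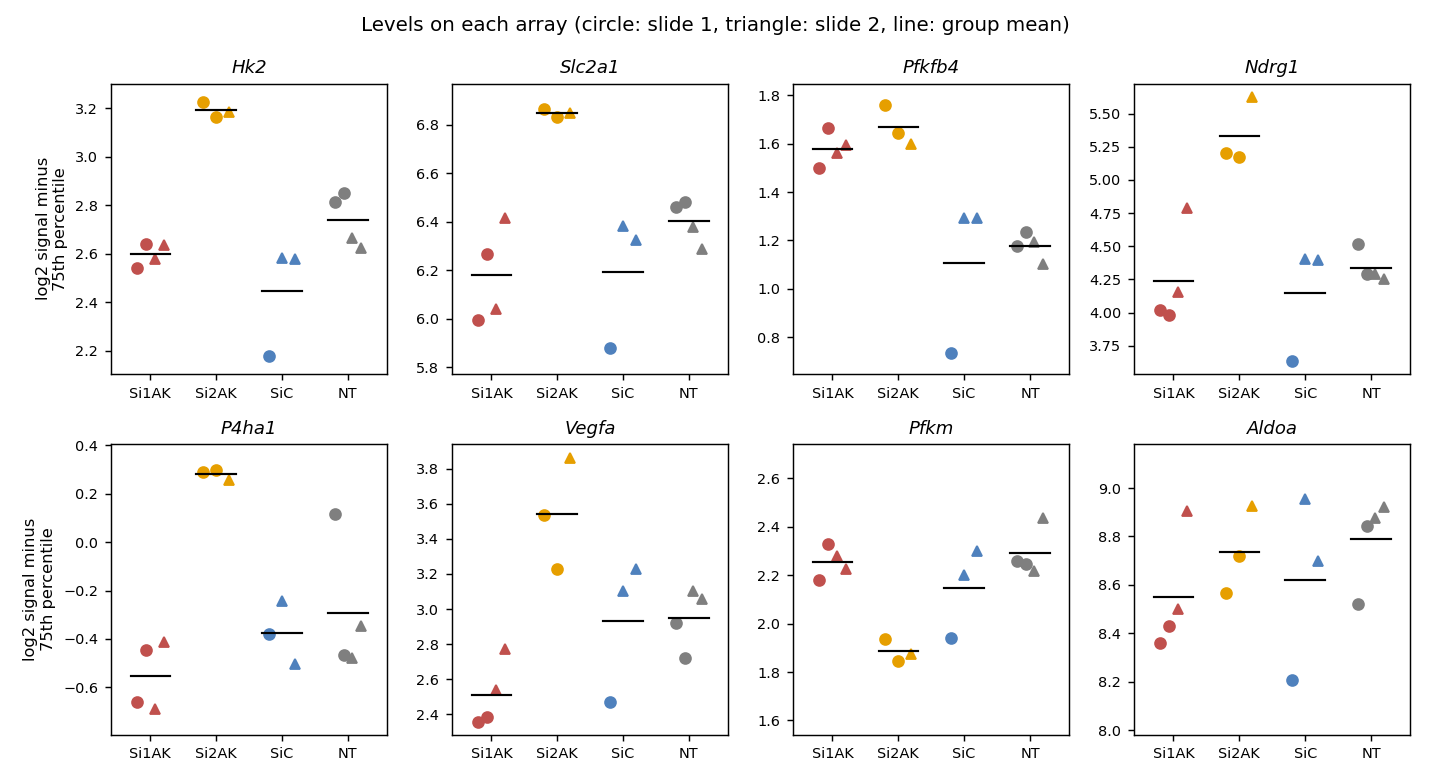
Log2 signal minus the 75th percentile of the array (vertical axes, scaled per gene) for the 7 members called in at least 1 comparison and for Aldoa, with 1 point per array, circles for slide 1, triangles for slide 2 and a line at the group mean. The 3 Si2AK arrays lie above every SiC array for Hk2, Slc2a1, Pfkfb4, Ndrg1 and P4ha1, and Aldoa overlaps between all groups.

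Among the glycolytic enzymes, only Hk2 passed. The other 13 differed by -0.26 to 0.54 with Si2AK against SiC. Aldoa, the fructose-bisphosphate aldolase of most tissues, was at 8.57, 8.72 and 8.92 in Si2AK and at 8.21, 8.95 and 8.70 in SiC. The groups overlapped fully, and the difference was 0.12 with an interval from -0.32 to 0.55. Pkm, the pyruvate kinase gene, differed by 0.01 (interval -0.34 to 0.36), and Ldha, which makes lactate from pyruvate, by -0.03 (interval -0.42 to 0.35). Pgk1, which makes ATP in the pathway, differed by 0.15 (interval -0.25 to 0.55). Its brightest probe is placed on chromosome 3 by the array annotation, and the other probe, placed on chromosome X, gave 0.09. Eno1, the enolase, differed by 0.02 (interval -0.27 to 0.31). Gpi1 (the isomerase), Tpi1 (the triose phosphate isomerase) and Pgam1 (the mutase) differed by 0.22, 0.02 and 0.15. Aldoc, the aldolase named for brain, had the highest value after Hk2, 0.54, with a wide interval from -0.30 to 1.37.

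The phosphofructokinase genes, which encode the committed step of glycolysis, differed in sign. Pfkm, the muscle form, was at 1.93, 1.84 and 1.88 in Si2AK and at 1.94, 2.20 and 2.30 in SiC. Each Si2AK array lay below each SiC array, but the difference of -0.26 ± 0.10 (SE) had a limma adjusted p of 0.112. Pfkl, the liver form, differed by -0.07 and Pfkp, the platelet form, by 0.32, and neither was called. The second Pfkp probe gave -0.33, so the probes of this gene disagreed.

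Among the other HIF targets, 11 of 14 tested genes lay above 0 with Si2AK against SiC and 3 below. Vegfa, the vascular growth factor, was at 3.54, 3.23 and 3.86 in Si2AK and at 2.47, 3.10 and 3.23 in SiC. The lowest Si2AK value was just above the highest SiC value, and the difference of 0.61 ± 0.21 (SE) had a limma adjusted p of 0.0859. Its second probe gave 0.70, and the mean of both probes was called (0.66, adjusted p = 0.0429). Ero1l, an oxidase of protein folding, differed by 0.73 (adjusted p = 0.07). With slides as blocks, Vegfa (0.74, adjusted p = 0.00322), Ero1l (0.84, adjusted p = 0.0188), Bnip3l (0.57, adjusted p = 0.0298) and the enzyme Pfkp (0.47, adjusted p = 0.0468) were called higher in addition to the 5. Bnip3, a mitophagy receptor, was at 5.82, 5.64 and 6.75 in Si2AK and at 5.19, 6.12 and 5.96 in SiC, with overlap. Its relative Bnip3l differed by 0.45 (interval -0.02 to 0.92), and Bnip3 itself by 0.31 (interval -0.57 to 1.19). Dimmer Bnip3l probes gave 0.33, 0.07 and 0.51. The other members of this role were the peptide hormone Adm (0.89, interval -0.56 to 2.34), the carbonic anhydrase Car9 (0.11), the mTORC1 inhibitor Ddit4 (-0.04), Ankrd37 (0.01), the oxygen sensors Egln1 (-0.14) and Egln3 (0.19) and the histone demethylase Kdm3a (-0.08). None of these 7 was called.

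Hif1a, the oxygen-regulated alpha subunit whose control is mainly at the protein level, was at 3.76, 3.07 and 3.52 in Si2AK and at 2.90, 3.21 and 3.31 in SiC. The groups overlapped, and the mRNA difference was 0.31 with an interval from -0.10 to 0.72.

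The median difference from SiC with Si2AK was 0.09 over the 14 glycolytic enzymes and 0.54 over the 5 transport and flux control genes. It was 0.25 over the 14 other HIF targets, beside -0.02 over all genes tested. Leaving out 1 array put the glycolytic median between -0.08 and 0.21, so its sign was not fixed. That of the other HIF targets lay between 0.15 and 0.43. The glycolytic enzymes ranged from -0.26 to 0.75 and the other HIF targets from -0.14 to 1.19. Groups did not overlap in 6 members that were higher and 1 that was lower with Si2AK, against 16.5% of all genes higher and 9.33% lower. Summed epithelial and melanocyte marker signals also differed without overlap. The summed signal of the 11 epithelial markers was 10.09 to 10.17 in Si2AK and 9.64 to 10.00 in SiC on the log2 scale, and 5 of them were called higher. The summed signal of 4 melanocyte markers was 1.95 to 2.05 in Si2AK and 1.23 to 1.40 in SiC, with Tyrp1 and Dct not kept. Of these 4, 1 was called higher, and their median difference was -0.29, so the sum does not stand for the list. The summed signal of 6 fibroblast markers was 0.64 to 0.99 in Si2AK and 0.02 to 0.65 in SiC, with Thy1 and Lum not kept. The part of these markers in the differences of the members was not tested.

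Si1AK against SiC asked the same of the first siRNA. No member was called by limma, beside a background of 4.41% of all genes. Beside 4014 of 21318 genes, 1 of 34 members had an unadjusted p under 0.05. That gene was Pfkfb4, at 1.50, 1.66, 1.56 and 1.59 in Si1AK and at 0.73, 1.29 and 1.29 in SiC. All Si1AK arrays lay above all SiC arrays. The difference was 0.47 ± 0.12 (SE; limma adjusted p = 0.0532). It was called in alternatives, among them normexp (0.50, adjusted p = 0.0289), quantile normalisation (0.42, adjusted p = 0.0249), slides as blocks (0.49, adjusted p = 0.0434) and the authors' deposited table (0.44, adjusted p = 0.0128). Groups did not overlap, with Si1AK higher, in this 1 member, against 10.7% of all genes.

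The 4 genes that rose with Si2AK besides Pfkfb4 gave small differences with Si1AK. Hk2 was at 2.54, 2.64, 2.58 and 2.64 in Si1AK, and its difference from SiC was 0.15 (interval -0.07 to 0.38). Slc2a1 was at 5.99, 6.27, 6.04 and 6.42 in Si1AK, and its difference was -0.01 (interval -0.31 to 0.28). Both sets of arrays overlapped with SiC. Ndrg1 was at 4.02, 3.98, 4.16 and 4.79 in Si1AK and differed by 0.09 (interval -0.41 to 0.59). P4ha1 was at -0.66, -0.45, -0.69 and -0.41 in Si1AK and differed by -0.18 (interval -0.48 to 0.13). Vegfa was at 2.36, 2.38, 2.54 and 2.77 in Si1AK and differed by -0.42 (interval -0.86 to 0.02), and it was called lower without the raised arrays (-0.65, adjusted p = 0.0398). Aldoa was at 8.36, 8.43, 8.50 and 8.91 in Si1AK, Bnip3 at 4.82, 5.11, 5.26 and 6.42 and Hif1a at 3.23, 3.03, 3.08 and 3.20, and none of these differed from SiC past the threshold. The medians from SiC were -0.04 over glycolytic enzymes and -0.07 over other HIF targets, beside -0.06 over all genes. Weighting the arrays by their quality gave 7 members called, Tpi1, Pdk1, Vegfa and Kdm3a lower and Pfkfb3, Pfkfb4 and Adm higher, while the calls over all genes went up to 3539 of 21318 with the weights, against 941 without them.

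**Figure D2:**
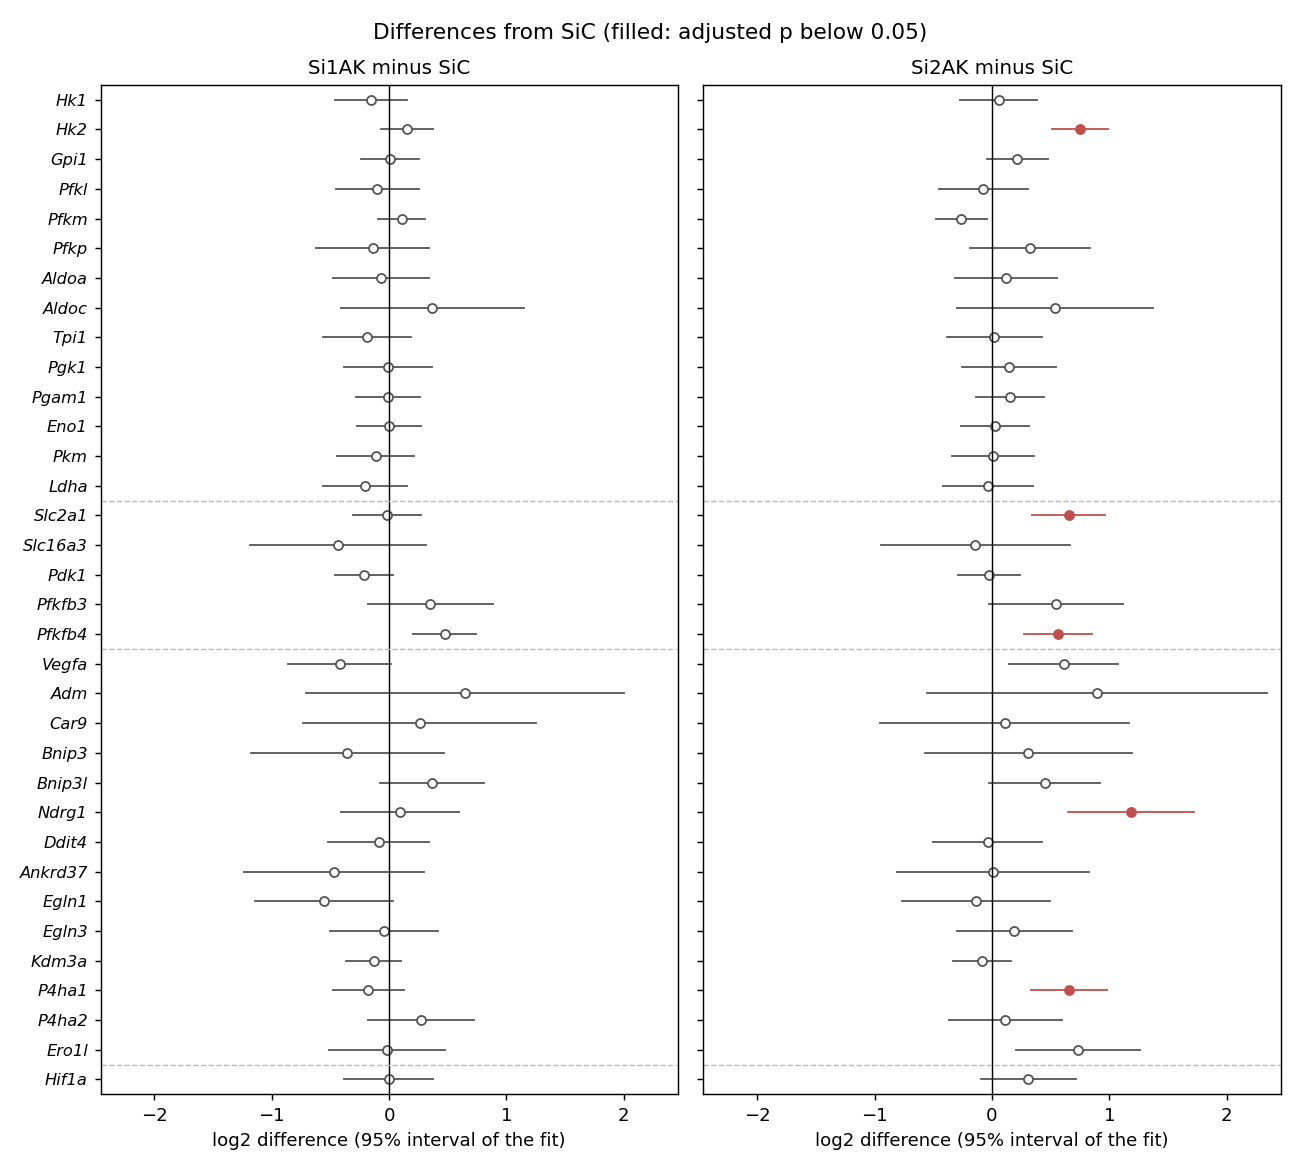
Log2 difference of each tested member from SiC (horizontal axis) for Si1AK on the left and Si2AK on the right, with the 95% interval of the fit as a line and a filled point where the adjusted p was below 0.05. Rows run from glycolytic enzymes through transport and flux control and other HIF targets to Hif1a, divided by dashed lines. The 5 filled points are all at Si2AK, and both panels share the SiC arrays.

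The comparisons with SiC share its 3 arrays, of which replicate 1 was low in Hk2, Slc2a1, Pfkfb4 and Ndrg1, so Si2AK was also set directly against Si1AK. Hk2, Slc2a1, Ndrg1, P4ha1 and Vegfa were higher with Si2AK and Pfkm was lower. These 6 of 34 members compare with 12.5% of all genes called in this comparison, 6.32% higher and 6.15% lower. With each array scaled to its median, no member was called, and 14 of 21318 genes were. In that setting Hk2 (0.0083) and Slc2a1 (0.084) were near 0 while the median of all genes moved to -0.49. Hk2 was higher by 0.59 ± 0.10 (SE; limma adjusted p = 0.0028), Slc2a1 by 0.67 ± 0.13 (adjusted p = 0.00627) and Ndrg1 by 1.10 ± 0.23 (adjusted p = 0.00851). P4ha1 was higher by 0.83 ± 0.14 (adjusted p = 0.00232), and its second probe gave 0.79. For each of these 4 genes, every Si2AK array exceeded every Si1AK array, and groups did not overlap in either direction in 29.4% of all genes.

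Vegfa was higher with Si2AK than with Si1AK by 1.03 ± 0.20 (SE; limma adjusted p = 0.00544), or 2.04-fold, and its second probe gave 1.10. The lowest Si2AK array (3.23) was above the highest Si1AK array (2.77). Within slide 1 it was 1.01 (adjusted p = 0.0612), with slide 2 alone 1.21 (adjusted p = 0.0385), and slides as blocks 1.10. The probe lies at chr17:46154387-46154446 of mm9. The Vegfa values of SiC, between 2.47 and 3.23, covered the gap between the siRNAs.

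Pfkm was at 1.93, 1.84 and 1.88 in Si2AK and at 2.18, 2.33, 2.28 and 2.22 in Si1AK, with no overlap. The difference was -0.37 ± 0.09 (SE; limma adjusted p = 0.0217), with its probe at chr15:97962713-97962772 of mm9. The call was lost without Si2AK replicate 2 or 3, without Si1AK replicate 2 or 3 (adjusted p = 0.0586 to 0.0826) with the replicate block (-0.35, adjusted p = 0.0578) and with no filter on dim probes (adjusted p = 0.0822). Pfkfb4, which was higher than SiC in every array of both siRNAs, did not differ between them past the threshold (0.09). On single slides, 1 member was called on slide 1 and 1 on slide 2 in this comparison, and 6 with the replicate block. The summed log2 signal of the epithelial markers was 10.09 to 10.17 in Si2AK and 9.78 to 9.94 in Si1AK, and 6 of 11 were called higher. That of the melanocyte markers was 1.95 to 2.05 in Si2AK and 1.08 to 1.34 in Si1AK, and that of 4 leukocyte markers 3.44 to 3.56 in Si2AK and 3.80 to 3.98 in Si1AK. Of the 4 melanocyte markers 1 was called higher and 1 lower, and no leukocyte marker was called. The part of these markers in the differences between the siRNAs was not tested.

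Set against untransfected cells, Si2AK gave the same 5 genes higher as against SiC, and Pfkm lower. These 6 of 34 compare with 15.6% of all genes called, 7.97% higher and 7.68% lower, again a similar share. With each array scaled to its median, no member was called, and 0 of 21318 genes. Relative to NT, Hk2 was higher by 0.45 ± 0.10 (SE; limma adjusted p = 0.0109), with NT at 2.81, 2.85, 2.67 and 2.62. Slc2a1 was higher by 0.45 ± 0.13 (adjusted p = 0.0409), with NT at 6.46, 6.48, 6.38 and 6.29. Ndrg1 was higher by 0.995 ± 0.23 (adjusted p = 0.0122), with NT at 4.52, 4.29, 4.29 and 4.25. None of the NT arrays reached the Si2AK values of these genes, and groups did not overlap in either direction in 26.7% of all genes.

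P4ha1 was higher by 0.57 ± 0.14 (SE; limma adjusted p = 0.0158), with NT at 0.12, -0.47, -0.48 and -0.35, and Pfkfb4 by 0.49 ± 0.12 (adjusted p = 0.0181), with NT at 1.18, 1.24, 1.19 and 1.10. Pfkm differed by -0.40 ± 0.09 (adjusted p = 0.0116), with NT at 2.26, 2.25, 2.22 and 2.44. Several of these calls were lost in fits with 1 array left out. The Slc2a1 call was lost in 9 of 14 leave-one-out fits, though its difference stayed between 0.41 and 0.47. It was also lost with the replicate block (0.47, limma adjusted p = 0.0585). Ndrg1 was lost without Si2AK replicate 3 (adjusted p = 0.0556), and P4ha1 and Pfkfb4 without Si2AK replicate 1 or 2. Without Si1AK replicate 4 and Si2AK replicate 3 the count was 2, with 2272 of 21318 genes called. Without Si2AK replicate 1 it was 3, with 2371 genes called. Summed signals of markers of other cell types also differed in this comparison. The summed log2 signal of the fibroblast markers was 0.64 to 0.99 in Si2AK and -0.28 to -0.08 in NT. That of the melanocyte markers was 1.95 to 2.05 in Si2AK and 1.03 to 1.24 in NT. That of the leukocyte markers was 3.44 to 3.56 in Si2AK and 3.61 to 3.94 in NT. Called higher were 2 of 6 fibroblast markers and 1 of 4 melanocyte markers. Of the 4 leukocyte markers 1 was called lower, while their median difference was 0.14. The part of these markers in the differences of the members was not tested.

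Vegfa was at 2.92, 2.72, 3.10 and 3.06 in NT, Aldoa at 8.52, 8.84, 8.87 and 8.92, Bnip3 at 6.12, 6.03, 6.12 and 5.86 and Hif1a at 2.84, 2.88, 3.36 and 3.11. Vegfa was above NT with Si2AK on every array by a mean of 0.59 (limma adjusted p = 0.0675), and Ero1l by 0.72 (adjusted p = 0.0511), both short of the threshold. Both were called with slides as blocks (Vegfa 0.66, adjusted p = 0.00287, and Ero1l 0.77, adjusted p = 0.0159) and with the replicate block (0.65, adjusted p = 0.034, and 0.76, adjusted p = 0.0451). Normexp, quantile normalisation, the authors' deposited table and array weights also called both. Glycolytic enzymes had a median difference of -0.09 from NT with Si2AK and other HIF targets of 0.01, beside 0.02 over all genes.

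Si1AK against NT gave no member called by limma, beside 7.07% of all genes. An unadjusted p under 0.05 was found for 6 of 34 members, beside 4538 of 21318 genes. Here 28 of 34 members lay below 0, with a median of -0.22 over glycolytic enzymes and -0.23 over other HIF targets, beside -0.09 over all genes. Ankrd37 had the lowest value, -0.89 (limma adjusted p = 0.134), and it was called with the replicate block (adjusted p = 0.0304), which gave 1 member in all. Pdk1 differed by -0.33 (adjusted p = 0.0833) and was called without Si1AK replicate 4 (-0.42, adjusted p = 0.0353). Pfkfb4 was again at the other end, 0.40 above NT (adjusted p = 0.0565).

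SiC against NT carries the transfection with the control siRNA and any difference in time in culture. It gave 0 members called by limma and 0% of all genes. An unadjusted p under 0.05 was found for 1 of 34 members, beside 1583 of 21318 genes. The differences were small but mostly of one sign: 32 of 34 members lay below 0, with a median of -0.17 over glycolytic enzymes and -0.18 over other HIF targets, beside -0.01 over all genes. Without SiC replicate 1 the median was -0.024 over glycolytic enzymes and -0.0047 over the other HIF targets, and slide 2 alone gave 0.04 over the other HIF targets. The size of these medians rested on that 1 array.

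The members also varied together between replicates of 1 group. Si1AK replicate 4 was the highest array of its group in 26 of 34 members, against 28.7% of all genes. Si2AK replicate 3 was the highest of its group in 23 of 34 members, against 25.7% of all genes, and SiC replicate 2 in 20 of 34, against 30.0%. The raised arrays, Si2AK replicate 2 and SiC replicate 1, took 48.4% and 44.3% of all genes, leaving less for the others. From the NT mean, the glycolytic and other HIF target medians were 0.05 and 0.02 on SiC replicate 2 and -0.10 and -0.06 on SiC replicate 3. SiC replicate 1 was low, at -0.45 and -0.30, so it set the SiC spread. Relative to the NT mean, the median of the other HIF targets was 0.22 on Si1AK replicate 4 and -0.40 to -0.35 on the other Si1AK arrays. It was 0.55 on Si2AK replicate 3, against -0.02 and -0.05 on the other Si2AK arrays. The glycolytic enzymes showed less of this, at -0.01 on Si1AK replicate 4 against -0.42 to -0.20 on the others, and at 0.07 on Si2AK replicate 3 against -0.19 and -0.10. The all-gene medians of these arrays lay between -0.10 and 0.11.

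Several members set these arrays apart from the rest of their groups. Car9, the carbonic anhydrase, was at -1.27 on Si1AK replicate 4 and at -2.82 to -2.74 on the other Si1AK arrays. It was at -1.43 on Si2AK replicate 3, against -3.46 and -2.76 on the other Si2AK arrays. On Si1AK replicate 4 and Si2AK replicate 3, Bnip3 was at 6.42 and 6.75, Slc16a3 at 1.49 and 1.61, Aldoc at 4.48 and 4.29, and Pfkp at 3.29 and 3.64, each the highest value of its group. Of the genes that rose with Si2AK, Ndrg1 was also at its group's highest on them (4.79 and 5.63), while Hk2, Slc2a1, Pfkfb4 and P4ha1 of Si2AK replicate 3 lay between or below the other Si2AK arrays. Both arrays were on slide 2, as were 5 further arrays.

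**Figure D3:**
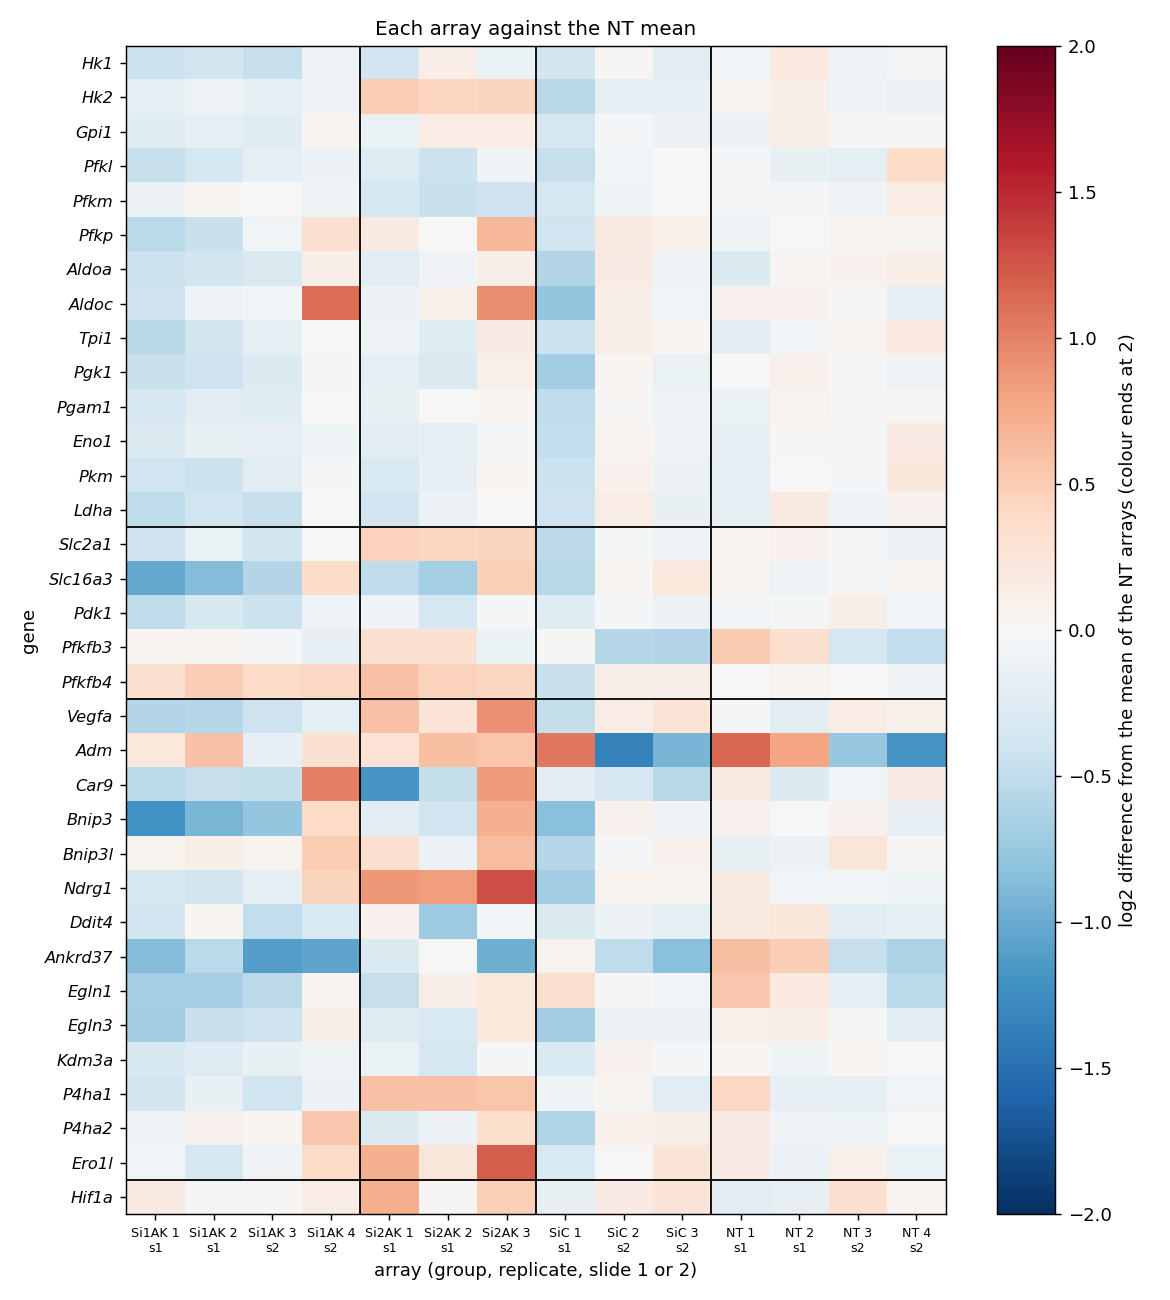
Log2 difference of each tested member (rows, ordered by role with black lines between roles) from the mean of the NT arrays, for each array (columns, with group, replicate and slide), red for higher and blue for lower. Si1AK 4 and Si2AK 3 are red for Aldoc, Slc16a3, Car9 and Bnip3, where the other arrays of their groups are mostly blue, and all Si2AK arrays are red for Hk2, Slc2a1, Pfkfb4, Ndrg1 and P4ha1.

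Related genes outside the 36 members were taken from 3 lists, and their counts stand beside 8.52% of all genes called higher with Si2AK and 4.41% called in either direction with Si1AK. Of 30 tested further genes of glycolysis and pyruvate use, 3 were higher with Si2AK than with SiC and 2 with Si1AK, and none was lower. With Si2AK these were Mpc2 (0.55) and Mpc1 (0.47), which pair to form the mitochondrial pyruvate carrier, and Pdhb (0.47), a subunit of pyruvate dehydrogenase. With Si1AK, Ldhb, the lactate dehydrogenase subunit of oxidative tissues, rose by 1.55 ± 0.15 (SE; limma adjusted p = 0.000232), and Pfkfb2 by 0.46. Ldhb differed by 0.13 with Si2AK and, set directly against Si1AK, by -1.42 (limma adjusted p = 0.000124). Gapdh was not called in any comparison.

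Of 18 tested components of the HIF pathway, 4 were higher with Si2AK than with SiC and 0 with Si1AK. They were the bHLH-PAS clock factor Arntl (0.75), Os9 (0.49), the ubiquitin ligase subunit Vhl (0.47) and the ligase Siah2 (0.43). Of 37 tested further hypoxia-induced genes, 4 were higher with Si2AK (Insig2 0.62, Lonp1 0.57, Plod2 0.47 and Igfbp3 0.35). With Si1AK, 2 were higher and 1 lower: the collagen lysyl hydroxylase Plod2 (0.79), the VEGF receptor Flt1 (0.66) and Ankzf1 (-0.39). List medians with Si2AK were 0.09, 0.16 and 0.22 for the 3 lists in the order given, and with Si1AK 0.10, -0.04 and 0.00, beside all-gene medians of -0.02 and -0.06.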

How the data were processed

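Per the file headers, Agilent Feature Extraction 10.7.3.1 made the deposited array files, whose processed signal is an intensity, background-subtracted within the array and not scaled between arrays. The deposited 0 or 1 marks for spots above background, saturated or outlying are of a unit other than intensity. A value table deposited by the authors gives these arrays in log2 units (higher for brighter spots, not centred per gene, with a median of 6.51 per array), and its background step is unknown. The submitters' processing notes name limma.

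Here, flagged and control spots were left out, spots of a probe were averaged (55681 probes), and each array's 75th percentile was subtracted from its log2 processed signals. A probe was kept where some group had it well above background on all of its arrays (30326 probes), and the brightest probe stood for its gene name. One limma model (version 3.58.1, R 4.3.3, lmFit and eBayes) took in the 14 arrays, so that groups share an estimate of spread, and p-values were adjusted over 21318 gene names. The fit was tested on simulated data with independent errors of 1 spread per gene. The simulation held no slide effect and no arrays of raised signal, so it cannot tell how the fit handles these. Errors are SD for groups and moderated SE for differences, intervals are 95%, and the number of arrays limits the precision. Replicates of a group correlated at 0.950 to 0.997 across genes, and none were identical.

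All 36 members are named. Outside them the rule names Gapdh and, per list and comparison with SiC, up to 4 called genes with the largest differences. Arrays are given in full for members called with SiC or between the siRNAs and for 1 gene per role picked by probe signal. The members and lists were chosen with earlier results of these data known. Alternatives covered background correction, scaling, filters, probes, array weights, blocks, slides and each array left out. Probe positions are of mm9 as in the files. Promoters are of GRCm38.p6 and were not set against them. Same-numbered arrays deviated together at over 0.1 in all 4 pairs of Si1AK and NT (r across genes of 0.12 to 0.24). No other comparison had this in all of its pairs. The main model held no term for replicate number in any comparison, and the replicate block was an alternative.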

Additional observations from a re-analysis of the deposited data

Results flagged for a closer look

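Values far from the rest of their group were sought in groups of 4 arrays, where chance sets apart about 1 in 20 groups. On Si1AK replicate 4, Car9 was at -1.27, against -2.82 to -2.74 on the other Si1AK arrays, and Bnip3l at 5.56, against 5.13 to 5.18. On NT replicate 1, Ndrg1 was at 4.52, against 4.25 to 4.29 on the other NT arrays. These were 2 of 34 members in Si1AK and 1 of 34 in NT, beside 5.16% and 5.49% of all genes.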

How the results depend on the processing

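No difference named in the report changed sign in a called gene. Scaling each array by its median in place of the 75th percentile ended all member calls (0 in Si2AK against SiC, NT and Si1AK). Over all genes it left 1, 0 and 14 of 21318 called in these comparisons. This scaling moved the median of all genes to 0.97 (Si1AK against SiC), 0.42 (Si2AK against SiC) and 0.36 (Si1AK against NT). Further all-gene medians were -0.11 (Si2AK against NT), -0.58 (SiC against NT) and -0.49 (Si2AK against Si1AK). In the same order, the glycolytic medians were 0.98, 0.53, 0.23, -0.22, -0.74 and -0.42, and those of the other HIF targets 0.96, 0.69, 0.22 and, for the last 2, -0.75 and -0.26. Fitting only the groups compared gave 0 members for Si2AK against SiC and 1 for Si1AK against NT. For Si1AK against SiC, 1 member was called with normexp, quantile normalisation, the authors' deposited table, probes above background on every array, slide as a block and the raised arrays left out, and 7 with array weights. For Si2AK against SiC, 8 were called with the authors' deposited table (3093), 9 with slide as a block (3499) and 10 with array weights (4040). The main fit called 5 there (2816). For Si1AK against NT the counts were 1 with normexp, 2 with quantile normalisation, 2 with the authors' deposited table, 1 with probes above background on every array, 4 with slide as a block, 1 with the replicate block, 5 with array weights, 3 without the raised arrays and 3 without Si1AK replicate 4 and Si2AK replicate 3, an alternative chosen after seeing the data. Without Si1AK replicate 4 and Si2AK replicate 3 the count was 2 for Si2AK against NT, and single slides gave 0 and 0 there and 1 and 1 for Si2AK against Si1AK. Leaving out 1 array gave 0 to 1 members for Si1AK against SiC, 0 to 1 for Si1AK against NT and 3 to 8 for Si2AK against NT. It put the other HIF targets of SiC against NT between -0.24 and -0.0047, and without the raised arrays they were at -0.0047. With quantile normalisation and the authors' deposited table, the glycolytic median was -0.049 and -0.016 for Si1AK against NT and 0.035 and 0.041 for Si2AK against NT. On slide 1, where SiC was replicate 1 alone, the glycolytic median was 0.32 for Si2AK against SiC and -0.41 for SiC against NT. That of the other HIF targets was -0.29 for Si2AK against NT and -0.40 for SiC against NT. On slide 2 the median of the other HIF targets was 0.61 for Si2AK against SiC, 0.056 for Si1AK against NT, 0.62 for Si2AK against NT and 0.043 for SiC against NT. The causes were not tested. The replicate block left 5 members for Si2AK against SiC and changed no call there. Quantile normalisation called 1662 genes higher and 1398 lower for Si2AK against SiC over all genes, beside 1817 and 999 with the 75th percentile.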
